A study of Copadichromis virginalis x Mchenga conophoros with 6 samples.

Results

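The comparison described here set male F1 hybrids taken through a pit-digging paradigm against male F1 hybrids taken through a castle-building paradigm, gene by gene, in whole brain. Its members are the 7419 genes listed in all 4 allele count tables of these groups, of 13212 genes listed anywhere in the series. Every animal was a hybrid of the Lake Malawi cichlids Copadichromis virginalis, whose males dig pits, and Mchenga conophoros, whose males build castles of sand. Pit digging had 2 libraries and castle building 2, and the 2 libraries of socially isolated male hybrids entered the fits to estimate the spread. The labels state neither ages nor broods, nor the time between behaviour and dissection.

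Bowers are the sand structures at which male cichlids of the lake court females. In a hybrid, both parental alleles of a gene share the same cells and the same regulatory proteins, so a difference between alleles within an animal is commonly traced to sequence linked to the gene. A difference between libraries, in the summed alleles or in their ratio, can come from the tissue, from the genetics of the animals or from library preparation. An allelic ratio that differs between behavioural states is read, in studies of this design, as a dependence of allele-linked regulation on the state. Whole brain mixes all regions and cell types, and in such bulk samples fewer cells of a type cannot be told apart from less RNA per cell.

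The pit digging libraries held 3294397 and 2243289 allele-assigned counts, the castle building libraries 2187643 and 2191037 and the isolated libraries 2155680 and 2275100. The castle building libraries were counted as 1 sample, their mean: 2232 of the 8704 genes they both list had identical counts on both alleles (25.6%), and their summed counts differed by less than sampling noise (chi-square per degree of freedom 0.495). The same statistic was 27.3 for the pit digging pair, in which 15 of 9482 genes were identical. Castle building therefore had n = 1, pit digging n = 2, and each test assumed that the castle building sample varied like the others. Nothing states that replicates came from separate broods or cultures, so the p-values speak of spread among these libraries alone, which may be technical. Of 10 neuronal marker genes 8 were listed in all 4 tables, among them snap25, syt1, elavl3 and syp. No marker of erythrocytes, pituitary or of retina and pineal was listed in all 4, and of 7 vascular and meningeal markers only dcn was. A gene that is not listed has no value, since the tables hold only genes with at least 6 counts on each allele, and castle building tables start at a total of 21.

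The castle building sample stood apart from the 2 pit digging libraries in gene level far more than in allelic share. Levels are summed counts of both alleles scaled to library size by TMM (CPM). Over the 6844 genes tested, the median absolute log2 ratio of CPM was 0.76 between pit digging replicate 1 and castle building and 0.78 between replicate 2 and castle building. It was 0.37 between the pit digging libraries and 0.30 between the isolated ones. Between pit digging and isolated libraries of the same number it was 0.42 and 0.45, so the castle building sample was the distant one. A ratio of over 4-fold was found for 10.7% and 11.4% of genes in pit digging against castle building, and for 2.63% between the pit digging libraries. The allelic share moved less: its median absolute gap was 5.07 and 5.21 percentage points between pit digging and castle building, against 4.28 points within pit digging. These gaps depended on counts. In the 1711 genes with the highest counts, the pit digging mean and castle building differed by 3.68 points, against 2.64 within pit digging. In the 1713 with the lowest counts these values were 6.45 and 6.83 points. The first value of each pair rests on a mean of 2 pit digging libraries, which carries less counting noise than a single library. The 2 values of a pair are thus not like for like.

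**Figure D1:**
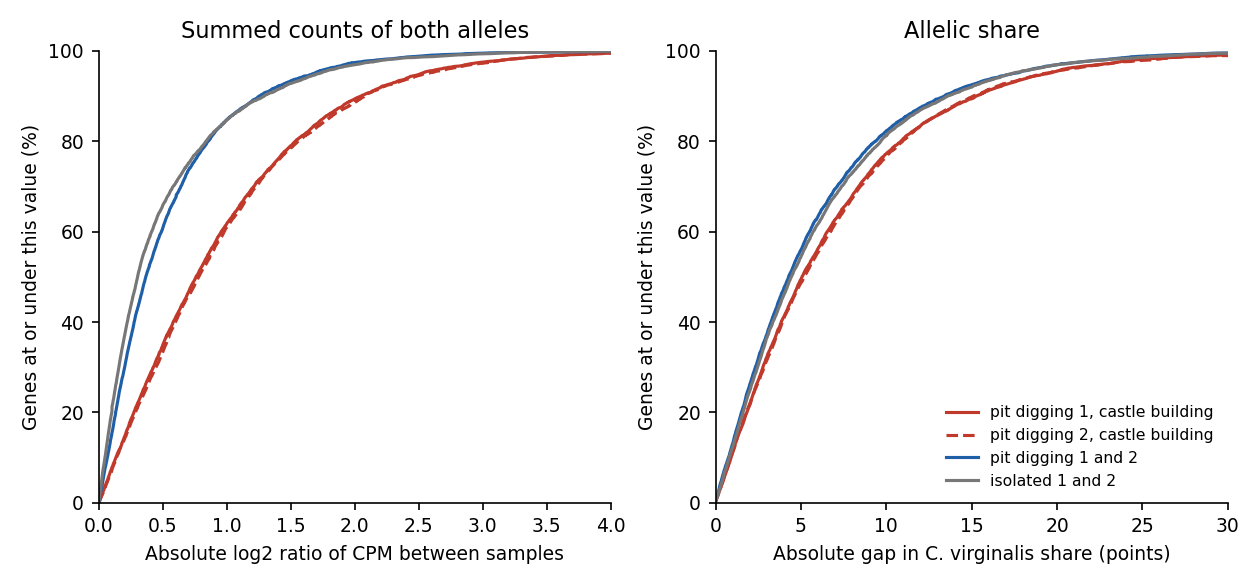
Cumulative share of the 6844 tested genes (vertical axis, %) by the absolute log2 ratio of CPM (left) or the absolute gap in C. virginalis share (right, percentage points) between 2 samples. Both curves of pit digging against castle building (red) run right of the pit digging pair (blue) and the isolated pair (grey); at the median the left panel gives 0.76 and 0.78 against 0.37 and 0.30.

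The allelic question was whether the C. virginalis share of a gene's counts differed between the behaviours. It did for 11 of 6844 genes (edgeR quasi-likelihood test of the interaction, Benjamini-Hochberg adjusted p under 0.05), which is 0.161% of those tested. A higher share in pit digging was found for 4 genes (0.0584%) and a lower one for 7 (0.102%). Over the members, both pit digging shares lay above the castle building share for 2983 genes (40.2%) and below it for 2247 (30.3%). The median share of a gene was 51.5 and 50.9% in the pit digging libraries and 50.6% in castle building. Summed over whole libraries the share was 53.9% (exact Clopper-Pearson 95% interval 53.87 to 53.98%) and 53.1% (52.997 to 53.13%) in pit digging, against 52.2% in both castle building libraries (52.13 to 52.26% in each). The intervals cover counting error only. Each library was summed over the genes its own table lists, 11716 and 9994 in pit digging and 8829 and 8834 in castle building. The library shares thus cover unlike sets of genes.

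The smallest p belonged to atp1b4, a member of the family of beta subunits of the sodium pump. Pit digging had 91 and 79 C. virginalis counts and 29 and 28 M. conophoros counts, whereas the castle building libraries had 87 and 87 C. virginalis counts and 875 and 876 M. conophoros counts. The C. virginalis allele was thus at nearly the same level in both groups, with 37.0 CPM in pit digging and 42.2 CPM in castle building. The M. conophoros allele had 12.5 CPM in pit digging and 425 CPM in castle building. The C. virginalis share was 75.8 and 73.8% in pit digging and 9.03% in castle building (difference 4.90 ± 0.30 log2, SE; adjusted p = 0.00347). The shares of both isolated animals were above castle building as well.

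The gene mgrn1, which encodes a RING-type ubiquitin ligase, moved in opposite directions on its 2 alleles. Its C. virginalis allele had 85.5 CPM in pit digging and 42.7 CPM in castle building, and its M. conophoros allele 12.1 CPM in pit digging and 61.6 CPM in castle building. The shares were 89.7 and 84.0% in pit digging against 40.9% in castle building (3.37 ± 0.31 log2, SE; adjusted p = 0.0103). The summed level did not pass (log2 difference -0.09 ± 0.43 SE, adjusted p = 0.908). The other genes with a higher share in pit digging, LOC101468439 and LOC101466162, carry no symbol in the files. LOC101468439 stood at 91.2 and 90.6% in pit digging and 35.955% in castle building, and LOC101466162 at 68.9 and 66.5% in pit digging and 29.4% in castle building.

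In several of the genes with a lower share in pit digging, the M. conophoros allele was scarce in castle building. The translation-associated gene tpt1 had 438 and 263 M. conophoros counts in pit digging, against 19 and 17 in castle building. Its C. virginalis allele changed less, with 386 CPM in pit digging and 183 CPM in castle building. The RNA helicase gene ddx5, which acts in splicing and transcription, had 243 and 240 M. conophoros counts in pit digging and 20 in each castle building library. Its M. conophoros level was 106 CPM in pit digging and 9.71 CPM in castle building. Such low counts on 1 allele lie close to the listing minimum, below which a gene would be absent from the table.

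In 3 further named genes both alleles were well covered. The 14-3-3 adaptor gene ywhaq had shares of 61.7 and 62.1% in pit digging and 85.4% in castle building (-1.85 ± 0.16 log2, SE; adjusted p = 0.00808), with a summed level that did not pass (-0.27 ± 0.21 log2, SE; adjusted p = 0.456). The ubiquitin ligase adaptor gene wsb1 had 48.4 and 49.6% in pit digging, against 78.5% in castle building (-1.93 ± 0.21 log2, SE; adjusted p = 0.0239), again with a summed level near 0 difference (0.11 ± 0.28). For both genes the C. virginalis allele was lower and the M. conophoros allele higher in pit digging. The condensin subunit gene ncapd2 had 60.6 and 45.5% in pit digging, against 88.3% in castle building (adjusted p = 0.0495), and its summed level differed too. The remaining genes were LOC101466690, at 51.6 and 51.5% in pit digging and 87.7% in castle building, and LOC101482653, at 60.17 and 60.15% in pit digging and 97.2% in castle building.

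**Figure D2:**
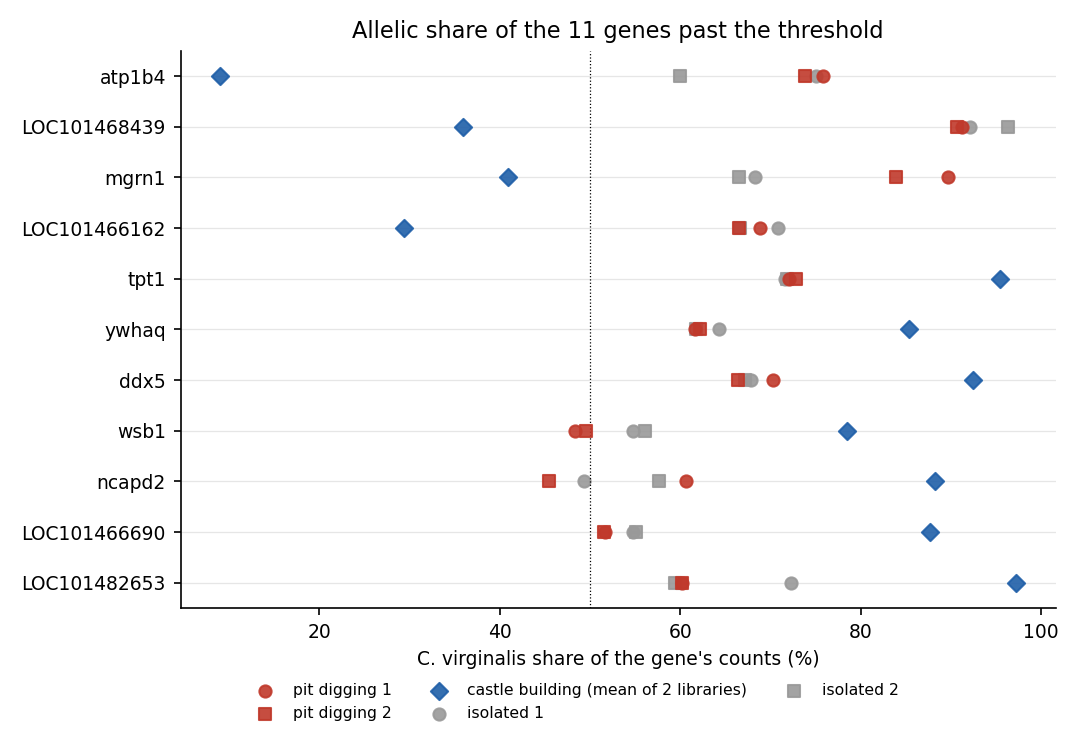
C. virginalis share of each gene's counts (horizontal axis, %) for the 11 genes past the threshold, with 1 point per sample: pit digging (red), castle building (blue, mean of 2 libraries) and isolated (grey); the dotted line marks 50%. In every gene shown the castle building point lies outside the pit digging points, from 9.03% for atp1b4 to 97.2% for LOC101482653.

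Of the 11 genes, the larger change was on the M. conophoros allele in 7 and on the C. virginalis allele in 4. The 2 alleles moved in opposite directions in 5, and in 7 the less changed allele differed by under 2-fold. The share of the isolated animals, which entered the fit, lay on the pit digging side of castle building in each of the 11 genes, as the plot of allelic shares shows. Leaving out libraries changed the count: 43 genes passed without pit digging replicate 2, of which 30 had a higher and 13 a lower share in pit digging. Without isolated replicate 1 or isolated replicate 2 fewer genes passed, and not all of the 11 were among them. Without castle building replicate 1 the count was 17. With the 4 libraries of the 2 behaviours alone, on 7406 genes, 5 genes passed. They were atp1b4, LOC101468439 and LOC101482653 again, and also marcks and stau1, the last of which was not taken by the naming rule and is given because the count is small.

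Further genes ranked next by p and did not pass the allelic test. The secretogranin gene scg3, a sorting receptor of dense-core granules, had shares of 69.6 and 70.9% in pit digging and 47.8% in castle building (1.36 ± 0.18 log2, SE; adjusted p = 0.0510). The Rab GTPase gene rab2a, which acts between endoplasmic reticulum and Golgi, had 73.7 and 71.3% in pit digging, both above castle building (adjusted p = 0.0510). The gene id2, an inhibitor of helix-loop-helix transcription factors, had 91.2 and 87.0% in pit digging and 45.2% in castle building. For these 3 genes the M. conophoros allele differed by 0.29, 1.07 and 0.33 (log2) and the C. virginalis allele by 1.66, 2.76 and 3.71.

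In the opposite direction, 2 genes of GABA metabolism were among those ranked next, and neither passed. The synthetic enzyme gad2 had shares of 50.5 and 50.1% in pit digging and 65.2% in castle building (-0.89 ± 0.14 log2, SE; adjusted p = 0.0772). The GABA transaminase abat, which breaks the transmitter down, had 57.4 and 45.5% in pit digging, against 80.9% in castle building (adjusted p = 0.0742). In both, the C. virginalis allele differed little between the behaviours (log2 0.33 for gad2 and -0.12 for abat). Their M. conophoros alleles differed by 1.22 and 1.81 (log2), higher in pit digging. The genes abi1 (47.6 and 48.3% in pit digging, 79.5% in castle building), of the actin-regulating WAVE complex, and serinc1 (77.9 and 79.7% in pit digging, 93.1% in castle building) also had lower shares in pit digging, and neither passed. By contrast arhgap12, a GTPase-activating protein, had 78.7 and 72.5% in pit digging and 31.1% in castle building, and carkd had 82.1 and 72.1% in pit digging and 38.6% in castle building.

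The second question was whether the summed level of a gene differed between the behaviours. It did for 321 of 6844 genes (edgeR quasi-likelihood test, adjusted p under 0.05), or 4.69%. Of these, 224 were higher in pit digging (3.27%) and 97 lower (1.42%). The median fold was 6.398 among the higher genes and 5.24 among the lower ones, and the smallest fold that passed was 2.52. Their adjusted p-values all lay between 0.0408 and 0.0499, so the calls had little margin. No gene passed once any single library of pit digging (replicate 1 or 2) or of isolation (replicate 1 or 2) was dropped, a count of 0 in each case, nor with pit digging and castle building alone. In those fits between 1803 and 1961 genes had an unadjusted p under 0.05, and DESeq2 on all samples called 826 genes.

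Both parental alleles were examined for the genes that passed. Among the 224 genes higher in pit digging, 223 were higher on each allele and 222 by over 2-fold on each. The median log2 difference was 2.80 for C. virginalis and 2.67 for M. conophoros alleles. Among the 97 lower genes, 97 were lower on each allele and 96 by over 2-fold, with medians of -2.34 and -2.46. A call on the sum of alleles near equal shares largely fixes that both move in its direction, so these counts are a description. The alleles differed by over 2-fold in their change in 33 of the 224 higher and 3 of the 97 lower genes, where the same held for 5.84% of all genes tested. Calls were more frequent at high counts: 177 of 1711 genes in the group with the highest counts passed (10.3%), against 18 of 1713 in the lowest (1.05%).

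**Figure D3:**
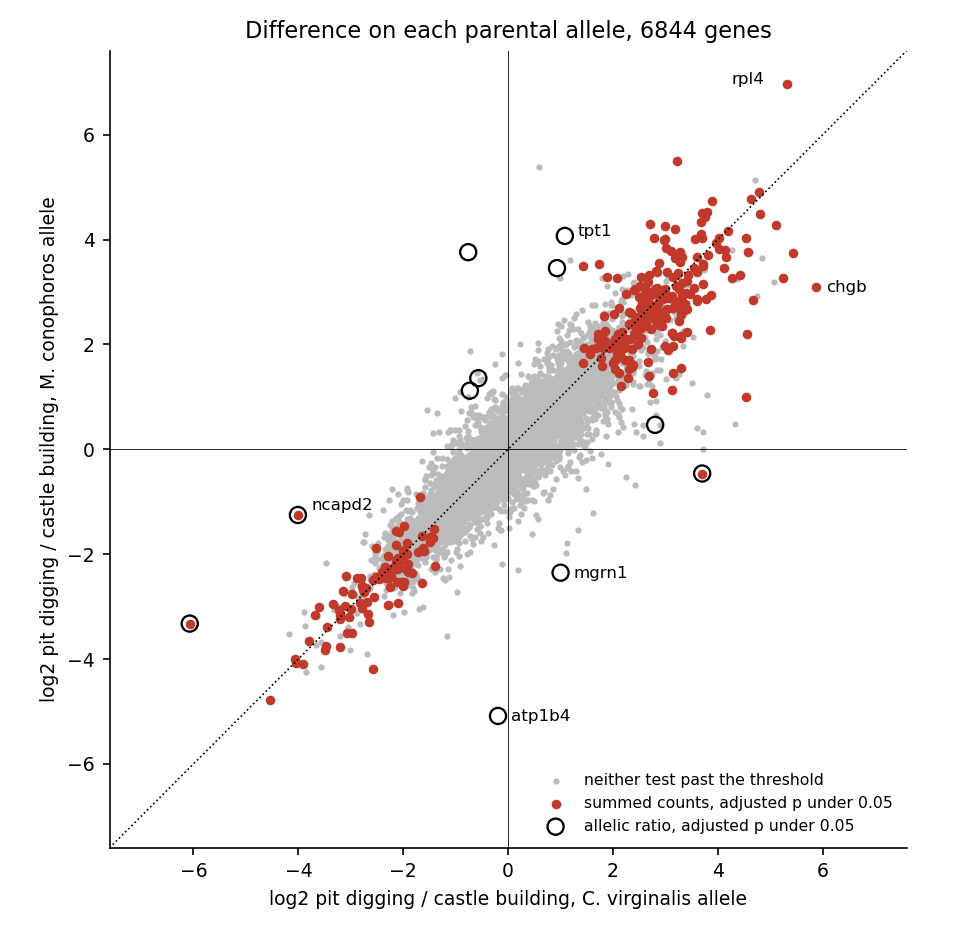
Log2 ratio of pit digging to castle building on the C. virginalis allele (horizontal) and the M. conophoros allele (vertical) for 6844 genes. Genes called for summed counts (red) mostly lie near the dotted diagonal of equal change on both alleles. In 33 of the 224 higher and 3 of the 97 lower ones the alleles differed by over 2-fold in their change. Genes called for the allelic ratio (circles), such as atp1b4 at -0.19 and -5.08, lie off the diagonal, as the test that selected them requires.

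Only 3 genes passed both tests, which is 27.3% of the allelic calls and 0.935% of the summed ones: ncapd2, LOC101466690 and LOC101468439. The gene ncapd2 had 71.1 and 77.2 CPM in pit digging and 713 CPM in castle building. Its C. virginalis allele had 39.1 CPM in pit digging and 629 CPM in castle building, and its M. conophoros allele 35.0 CPM in pit digging and 83.5 CPM in castle building. LOC101466690 had 21.7 and 35.1 CPM in pit digging and 1123 CPM in castle building. For LOC101468439 the sign depended on the allele: its log2 difference was 3.70 for C. virginalis counts and -0.46 for M. conophoros counts.

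Some genes called for their sum differed more on 1 allele than on the other. Of those named next, none passed the allelic test in the fit of all samples, and marcks passed it with the 4 libraries of these behaviours alone. The granin gene chgb had 1533.5 and 709 CPM in pit digging and 29.1 CPM in castle building, with log2 differences of 5.87 for C. virginalis and 3.10 for M. conophoros counts. For marcks, an actin-binding substrate of protein kinase C, the log2 differences were 4.54 for C. virginalis and 0.9997 for M. conophoros counts. The transcriptional cofactor gene lmo4 showed 4.55 and 2.20 in the same order. The genes mien1 (3.22 on the C. virginalis and 5.51 on the M. conophoros allele) and abi1 (1.42 and 3.49) leaned the other way. The 2 castle building libraries had 6 M. conophoros counts each for mien1, the smallest number the tables list.

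The plot of levels by sample shows the genes with the largest folds, which were taken only where the groups did not overlap. The ribosomal protein gene rpl4, of the large subunit, had 771 and 616 CPM in pit digging and 11.2 CPM in castle building. The castle building libraries each had 17 C. virginalis and 6 M. conophoros counts for it. The lysosomal membrane protein gene lamp2 had 1204 and 1179 CPM in pit digging and 87.9 CPM in castle building (3.76 ± 0.26 log2, SE). The cilium transition zone gene rpgrip1l had 211 and 253 CPM in pit digging and 15.05 CPM in castle building (3.94 ± 0.37), and mien1 348 and 260 CPM in pit digging and 21.4 CPM in castle building (3.83 ± 0.37). All these genes had isolated levels on the pit digging side.

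Other genes were lower in pit digging. The Mediator kinase gene cdk19 had 6.65 and 7.45 CPM in pit digging and 116 CPM in castle building (-4.03 ± 0.50 log2, SE). The gene mapkap1, a subunit of the TOR complex that phosphorylates AKT, had 11.6 and 8.52 CPM in pit digging and 132 CPM in castle building (-3.70 ± 0.38). The ERK pathway scaffold shoc2 had 10.2 and 9.05 CPM in pit digging and 71.8 CPM in castle building (-2.89 ± 0.36). Low pit digging counts underlie these folds, near the listing minimum of 6 per allele. The C. virginalis counts were 12 and 6 for cdk19, 14 and 9 for mapkap1 and 13 and 10 for shoc2. The M. conophoros counts were 7 and 8, 19 and 7, and 16 and 7 in the same order. The transcription factor mef2d, which neuronal activity regulates in mammals, had 88.9 and 157 CPM in pit digging and 818 CPM in castle building (-2.74 ± 0.41). The guanine nucleotide exchange factor plekhg1 (18.9 and 14.4 CPM in pit digging, 148 CPM in castle building) and hif1an, an oxygen-dependent inhibitor of HIF1 (14.001 and 9.58 CPM in pit digging, 95.6 CPM in castle building), were lower as well.

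**Figure D4:**
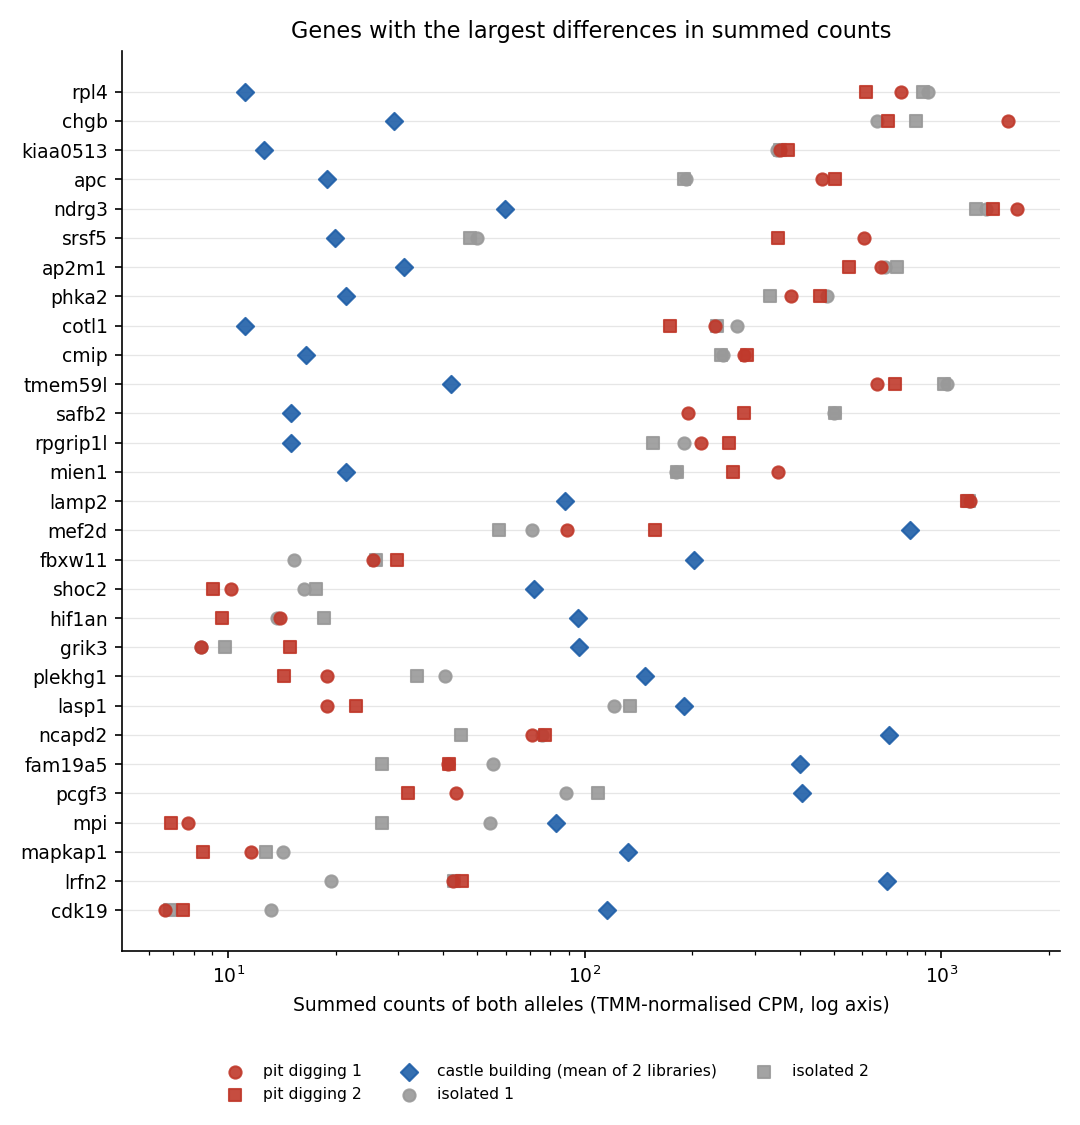
Summed counts of both alleles (TMM-normalised CPM, log axis) in each sample for genes with the largest folds, with pit digging in red, castle building in blue (mean of 2 libraries) and isolated animals in grey. The genes from rpl4 to lamp2 are higher in pit digging and those from mef2d to cdk19 are lower; srsf5 and lasp1 are examples in which the grey points lie nearer castle building.

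Isolated animals mostly resembled pit diggers at these genes. On the log2 scale their mean level was nearer to pit digging than to castle building for 214 of the 224 genes higher in pit digging and for 81 of the 97 lower ones. This was so for 71.4% of all genes tested. The calls were made in a fit that includes the isolated libraries, so these counts are a description. For 26 genes the isolated mean lay nearer castle building on that scale, some of them close to midway.

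Of these, 10 were higher in pit digging. The splicing factor gene srsf5 had 607 and 349 CPM in pit digging, 19.9 CPM in castle building and 49.98 and 47.5 CPM in isolation. The helicase gene ddx31 had 341 and 391.9 CPM in pit digging, 34.5 CPM in castle building and 57.3 and 71.0 CPM in isolation. The co-chaperone st13 (294 and 257, 27.7, 59.97 and 66.6 CPM in the same order) and smarcd1, of the SWI/SNF chromatin remodelling complex (155 and 148, 13.6, 33.1 and 44.1 CPM), followed this pattern. So did eif4b, a cofactor of the translation initiation helicase (211 and 202, 20.4, 67.3 and 36.7 CPM), and the mitochondrial enzyme subunit idh3b (328 and 302, 43.7, 99.95 and 93.5 CPM).

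The other 16 were lower in pit digging. The actin-binding gene lasp1 had 18.9 and 22.9 CPM in pit digging, 190 CPM in castle building and 121 and 134 CPM in isolation (pit digging against castle building -3.19 ± 0.29 log2, SE). The neuronal nitric oxide synthase gene nos1 had 65.1 and 69.2 CPM in pit digging, 220 CPM in castle building and 160 and 134 CPM in isolation (-1.71 ± 0.27). For cntnap1, which holds the axon to myelin beside the node of Ranvier, the levels were 134 and 164 CPM in pit digging, 465 CPM in castle building and 295 and 302 CPM in isolation. The acetoacetyl-CoA synthetase gene aacs had 27.3 and 25.02 CPM in pit digging, 168 CPM in castle building and 122 and 107 CPM in isolation. The mannose phosphate isomerase gene mpi, the mitochondrial import gene tomm6, cep41 of the cilium and tmem161a were also among the 16. Pit digging against isolation was not tested for these genes here, and idh3b, st13, nos1, aacs, cep41, tomm6 and tmem161a were chosen after their values were seen.

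Gene lists were read against the 4.69% of all genes that passed. That share is not matched for counts: it was 1.05% in the group with the lowest counts and 10.3% in the group with the highest. Synaptic and neuronal adhesion genes, which hold the 2 sides of a synapse together or guide axons, leaned to lower levels in pit digging. Of 62 tested, 4 were lower, none was higher and 58 did not pass, or 6.45% called, and their median log2 difference was -0.62 against 0.05 for all genes. Both pit digging libraries lay below castle building for 43 of the 62 and above it for 8. Over all members the corresponding numbers were 3107 below and 2950 above of 7419. The median of the list stayed negative, between -0.89 and -0.57, under 2 other scalings, without either pit digging library and on either allele alone. The summed level of the 62 was 11980 and 18645 CPM in pit digging and 25580 CPM in castle building. It was 12981 and 12432 CPM in isolation, so the isolated animals were also below castle building, and the pit digging libraries differed from each other.

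The 4 adhesion genes that passed were the synaptic adhesion gene lrfn2, the protocadherin pcdh17, the adhesion GPCR adgrb3 and cntnap1. The gene pcdh17 had 113 and 106 CPM in pit digging and 492 CPM in castle building (-2.17 ± 0.25 log2, SE), and adgrb3 had 238 and 314 CPM in pit digging and 1100 CPM in castle building (-1.997 ± 0.27). The postsynaptic adhesion gene nlgn1, chosen after its values were seen, had 8.75 and 151 CPM in pit digging and 684 CPM in castle building. It did not pass (adjusted p = 0.227), and its 2 pit digging libraries differed from each other by over 4-fold.

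Glutamate and GABA genes did not move as a block. Of 16 glutamate receptor and transporter genes 1 was higher and 2 were lower in pit digging (18.75% called). Among the lower ones the kainate receptor grik3 had 8.401 and 14.9 CPM in pit digging and 96.1 CPM in castle building (-3.05 ± 0.47 log2, SE). The vesicular glutamate transporter slc17a6, which fills vesicles, had 413 and 477 CPM in pit digging and 115 CPM in castle building (1.96 ± 0.28). Of 14 GABA genes the receptor subunit gabra5 was higher, with 400 and 497 CPM in pit digging and 120 CPM in castle building (1.90 ± 0.28), and 13 did not pass (7.14% called).

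Vesicle and channel genes also held members of both directions. Of 42 synaptic vesicle and SNARE genes 3 were higher and 1 lower in pit digging (9.52%). The synapsin syn2, which tethers vesicles, had 1133 and 1433 CPM in pit digging and 231 CPM in castle building, and stxbp5, an inhibitor of SNARE assembly, 182 and 218 CPM in pit digging and 24.8 CPM in castle building. The SNARE-disassembly gene napg was the other higher one (2.33 ± 0.34 log2, SE). The active zone gene rims4 went the other way, with 757 and 612 CPM in pit digging and 3093 CPM in castle building (-2.17 ± 0.24). Of 29 voltage-gated and related channel genes, kcnc1 and kcnj3 were higher and cacna2d4 was lower (10.3% called). The potassium channel kcnc1, which lets neurons fire fast, had 331 and 346 CPM in pit digging and 37.9 CPM in castle building (3.16 ± 0.28).

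Among 15 neuropeptide, granin and processing genes, the granins chga and chgb were higher in pit digging and 13 did not pass (13.3% called). The level of chga, a matrix protein of dense-core vesicles, was 753 and 859 CPM in pit digging and 101 CPM in castle building (2.99 ± 0.27 log2, SE). The prohormone convertase pcsk1, which cuts their contents, had 95.9 and 117 CPM in pit digging and 314 CPM in castle building and did not pass (adjusted p = 0.0533). The neuron list held 10 tested genes and was a different set from the 10 neuronal markers above, although the 2 sets overlap. Of its 10 genes the neurofilament nefm (331 and 367 CPM in pit digging, 53.4 CPM in castle building) and the stathmin stmn2 (591 and 582 CPM in pit digging, 65.0 CPM in castle building) were higher (20% called). The summed level of the 10 was 4061 and 5115 CPM in pit digging and 4567 CPM in castle building, so the list as a whole did not separate the groups.

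**Figure D5:**
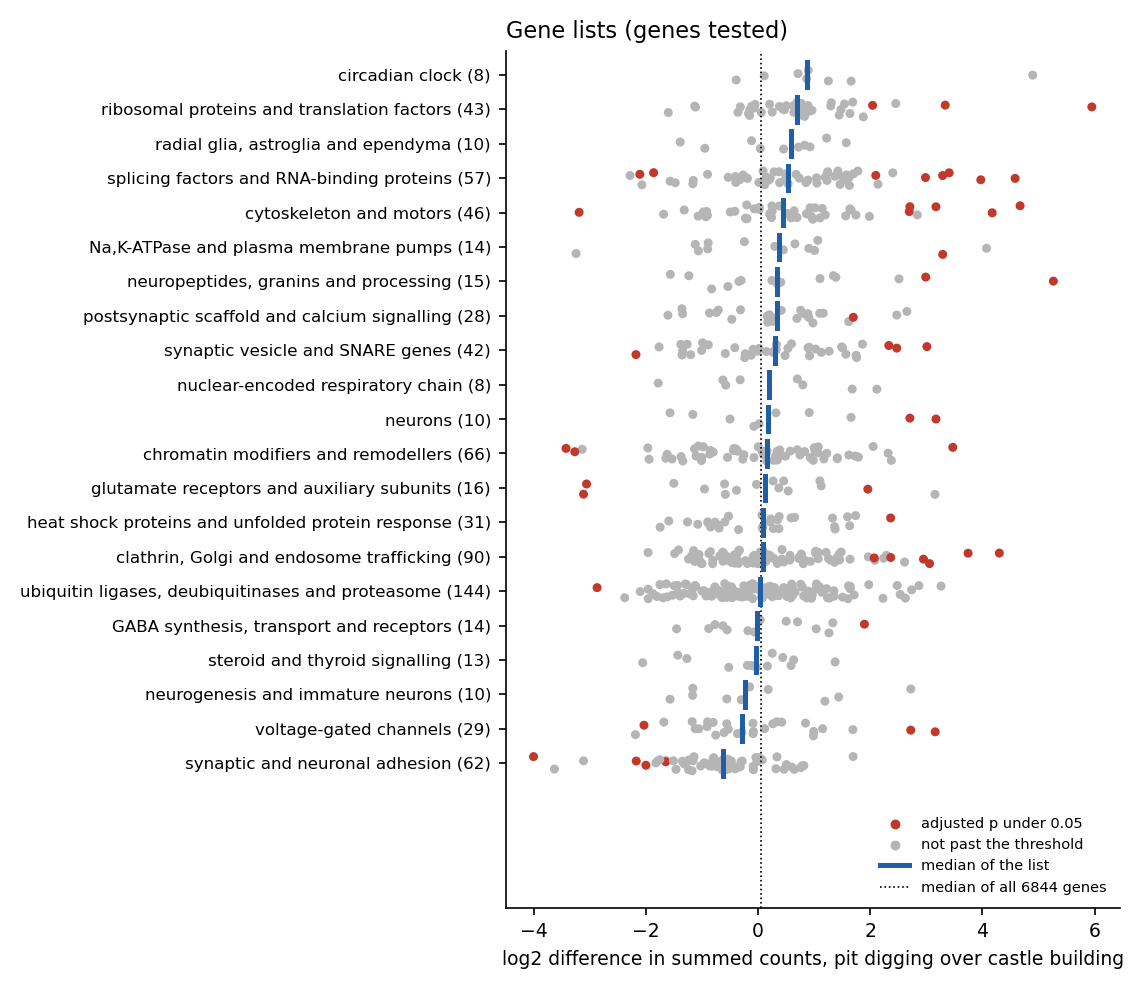
Log2 difference in summed counts (pit digging over castle building, horizontal axis) of each tested gene in the lists with at least 8 tested genes, whose number stands in parentheses. Red points passed the test, blue bars are list medians and the dotted line is the median of all 6844 genes, 0.05; the adhesion list has the lowest median at -0.62.

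Genes of RNA processing and of translation had list medians above that of all genes. Of 57 splicing and RNA-binding genes 6 were higher and 2 lower (14.04% called, median log2 0.54). The higher ones were srsf5, safb2, ddx31, prpf38b, rbm25 and luc7l, and the lower ones the neuronal regulators celf6 and elavl2. The spliceosomal gene prpf38b had 275 and 220 CPM in pit digging and 25.2 CPM in castle building (3.29 ± 0.34 log2, SE), whereas elavl2, which stabilises neuronal mRNAs, had 172 and 166 CPM in pit digging and 614 CPM in castle building (-1.86 ± 0.23). Of 43 ribosomal protein and translation factor genes rpl4, rps24 and eif4b were higher, none was lower and 40 did not pass (6.98% called, against 4.69% of all genes). Both pit digging libraries lay above castle building for 33 of the 51 listed members and below for 10, with a median log2 of 0.69 among those tested. Over all members of the comparison, 39.8% lay above and 41.9% below. The medians of both lists stayed positive under 2 other scalings and without either pit digging library. The gene rps24 had 638 and 622 CPM in pit digging and 153 CPM in castle building, while rplp0, chosen after its values were seen, had 464 and 421 CPM in pit digging and 490 CPM in castle building.

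Of 90 coat and trafficking genes tested, 6 were higher, none was lower and 84 did not pass. The called share of 6.67% was near that of all genes and the list median was 0.08. Both pit digging libraries lay above castle building for 42 of 104 listed members and below it for 38. Over all members of the comparison, 39.8% lay above and 41.9% below. The clathrin heavy chain cltc had 170 and 176 CPM in pit digging and 22.3 CPM in castle building (2.95 ± 0.35 log2, SE). The adaptor subunit ap1m1, which sorts cargo at the Golgi, had 209 and 183 CPM in pit digging and 14.6 CPM in castle building (3.74 ± 0.33). Beside the adaptor subunit ap2m1 of endocytosis, the GTPases rab1a, rab2a and rab22a made up the rest, with log2 differences of 2.37, 2.07 and 3.06. Of 46 cytoskeletal genes 5 were higher, among them actn4 (234.2 and 295 CPM in pit digging, 40.8 CPM in castle building), and lasp1 was lower (13.04% called). The higher ones include nefm and stmn2, already counted in the neuron list.

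Of 14 ion pump genes 1 passed for sums (7.14%, against 4.69% of all genes). Another passed for the allelic ratio, as did 0.161% of all genes. The sodium pump subunit atp1b3 had 680 and 957 CPM in pit digging and 83.5 CPM in castle building (3.29 ± 0.42 log2, SE). In the same family atp1b4, with the allelic difference above, had summed levels of 42.0 and 57.0 CPM in pit digging and 467 CPM in castle building, which did not pass (adjusted p = 0.0760). Of 66 chromatin genes smarcd1 was higher and pcgf3, of a Polycomb repressive complex, and ncapd2 were lower (4.55% called). Of 144 ubiquitin and proteasome genes 1 passed, the ligase subunit fbxw11, with 25.6 and 29.8 CPM in pit digging and 202 CPM in castle building. That is 0.694% of the list.

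Myelin and glial genes bear on the cell makeup of the samples. The major myelin glycoprotein of fish, mpz, had 6468 and 6587 CPM in pit digging and 844 CPM in castle building, with 5543 and 5339 CPM in isolation (2.95 ± 0.27 log2, SE). It was the 1 gene of 7 in the oligodendrocyte list that passed (14.3% called). Both pit digging libraries lay above castle building for 4 of the 7 and below it for 1, with a median log2 of 0.67. Over all members of the comparison, 39.8% lay above and 41.9% below. The proteoglycan link gene hapln2 had 187 and 165 CPM in pit digging and 71.8 CPM in castle building and did not pass (adjusted p = 0.106). Among transcription factors of these cells, myrf had 211 and 245 CPM in pit digging and 217 CPM in castle building, and sox10 had 130 and 110 CPM in pit digging and 93.7 CPM in castle building. The summed level of the 4 listed oligodendrocyte markers was 6884 and 6886 CPM in pit digging and 1048 CPM in castle building, most of it mpz. Of these, mpz, hapln2 and sox10 were higher in both pit digging libraries. The myelin gene mbp was neither higher nor lower in both. The 5 listed astroglial markers summed to 3928 and 3868 CPM in pit digging and 5547 CPM in castle building. Most of the castle building sum was the glutamate transporter slc1a2 (1460 and 1788 CPM in pit digging, 4245 CPM in castle building), while 3 of the 5 markers were higher in both pit digging libraries. The 2 markers of microglia and leukocytes summed to 208 and 265 CPM in pit digging and 84.5 CPM in castle building. Of these, cd74 had 149 and 254.5 CPM in pit digging and 71.4 CPM in castle building, whereas csf1r had 58.5 and 10.1 CPM in pit digging and 13.1 CPM in castle building. None of the 10 tested genes in the radial glia, astroglia and ependyma list passed, where 4.69% of all genes did, and the list median was 0.59. The part of cell makeup in the other differences was not tested.

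Immediate early genes, which neurons switch on within minutes of activity, gave no call among 5 tested, where 4.69% of all genes passed. At that share, no call in lists as short as those of this paragraph says little about their members. The level of egr1 was 276 and 529 CPM in pit digging and 80.6 CPM in castle building, but 590 and 158 CPM in isolation (2.32 ± 0.99 log2, SE; adjusted p = 0.206). For other members, ier2 had 101 and 98.5 CPM in pit digging and 55.8 CPM in castle building, and homer1 had 111 and 76.7 CPM in pit digging and 157 CPM in castle building. No gene of the 13 tested in steroid and thyroid signalling passed. The receptors for corticosteroids, nr3c1 (84.4 and 90.5 CPM in pit digging, 235.4 CPM in castle building) and nr3c2 (48.7 and 87.3 CPM in pit digging, 282 CPM in castle building), had adjusted p-values of 0.0646 and 0.0669. None of 8 circadian clock genes passed either, although single genes lay far apart. The median log2 difference of the 8 was 0.88, against 0.05 for all genes, with 7 above 0 and 1 below. Without pit digging replicate 2 the median was 0.23, with 4 above 0 and 4 below. The repressor per1 had 211 and 1152 CPM in pit digging and 22.8 CPM in castle building (adjusted p = 0.0976), while per2 had 10.9 and 46.9 CPM and clock 33.3 and 7.99 CPM in pit digging, against 318 and 152 CPM in castle building. The genes per2 and clock were not listed in both isolated libraries and so were not in the main fit, and they were chosen after their values were seen. The labels do not state the time of day of sampling.

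Among the 575 members outside the main fit, 6 were over 4-fold higher in both pit digging libraries and 37 over 4-fold lower. Over all 7419 members the same counts were 299 and 178. Of the 575, 571 were not listed in both isolated tables. The set was thus chosen through isolation, where levels were nearer to pit digging for 71.4% of all genes tested. The part of this choice in the 6 and 37 was not tested. None of the 575 passed in the fit of the 4 libraries of these behaviours alone, whose smallest adjusted p for sums was 0.0895. The ribosomal protein gene rpl17 had 634 and 569 CPM in pit digging and 33.0 CPM in castle building. Its level was 22.1 CPM in isolated replicate 1, near castle building, and isolated replicate 2 did not list it. The sulfotransferase gene chst8 had 16.1 and 60.2 CPM in pit digging and 1008 CPM in castle building, and rictor, which shares with mapkap1 the TOR complex named above, had 7.0005 and 7.45 CPM in pit digging and 106 CPM in castle building. These 3 were chosen after their values were seen.

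Listing itself differed between the pit digging and castle building tables. Both pit digging tables, but neither castle building table, listed 1915 genes, against 428 listed by both castle building tables and neither of pit digging. Both isolated tables also listed 1334 of the 1915, but only 95 of the 428. The isolated tables listed 10235 and 10450 genes, against 8829 and 8834 in castle building, so in listing too castle building was the sample apart. Pit digging replicate 1 was the deepest library and the castle building tables start at a total of 21; the part of either in these numbers was not tested. Of the 1915, 321 had at least 100 counts in each pit digging library, and of the 428, 79 had as many in each castle building library. The ribosomal protein genes rps10 (1157 and 671 C. virginalis counts), rpl18 (687 and 1220) and rpl8 (1261 and 630) were among the 8 with the highest totals in the first set. The mitochondrially encoded COX2 and ND6 were too, but their C. virginalis counts were 9 and 9 for COX2 and 34 and 12 for ND6, near the listing minimum of 6 for COX2. Neither isolated table listed rps10, while both listed rpl18 and rpl8. In the second set tmem8b (340 and 333 C. virginalis counts) and the arginine methyltransferase gene prmt1 (162 and 167) ranked among the first 8. A gene that is not listed may have had fewer than 6 counts on a single allele, and no fold is given for these genes.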

How the data were processed

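Trizol extraction of whole brain and Illumina sequencing are stated in the protocols. For every library the authors deposited raw gene counts for the C. virginalis and the M. conophoros allele, without normalization, and the log2 ratio of these counts, which was recomputed from the deposited counts and not used further. Per the submitters' processing notes, STAR 2.4 was used. Genome build, annotation, informative sites, allele counter and strand: not given in the sources used here. No genome was used, so genes carry the files' symbols without positions or sequences. Copies of a gene in the fish genome can share reads.

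The members, gene lists and naming rules were chosen with earlier results of these data known. Genes listed in all 6 tables with a mean total of at least 20 counts were tested (6844 genes); members missing from an isolated table have values only. Castle building entered as 1 sample, the rounded mean of its libraries. Mean totals were taken over all 5 samples, so a gene high in castle building alone could reach a count minimum through it. The allelic model (glmQLFit and glmQLFTest of edgeR 4.0.16, R 4.3.3) held an intercept per animal, an allele coefficient per paradigm and a shared library size for both alleles of an animal. Sums of alleles were fitted with TMM normalization. Both fits had 5 samples and 2 residual degrees of freedom, and p-values were adjusted by Benjamini-Hochberg over all tested genes with a threshold of 0.05. The biological coefficient of variation was 10.8% for allelic ratios and 34.1% for sums. An SE is the log2 difference divided by the square root of F. Both fits were tested on simulated data.

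Named genes were the 24 with the smallest allelic p, the 15 called genes with the largest fold of sums in each direction (symbol, mean total of at least 50, groups not overlapping), up to 4 per list, genes called by both tests, the 8 called sums with the most unequal alleles, and the 8 with the highest totals listed in 1 paradigm only; some of these are not reported here. Outside these rules, and chosen after their values were seen, are snap25, syp, stau1, cntnap1, napg, rbm25, luc7l, celf6, elavl2, cltc, rab1a, actn4, myrf and sox10, and those so marked in the text. Lists are described by counts and medians, without set tests. Of 31 lists, those for monoamines (5 tested), nuclear respiratory chain genes (8), heat shock (31, with hspa4l higher), postsynaptic signalling (28, with psd higher), neurogenesis (10), vessels (6), 14-3-3 proteins (2) and the mitochondrial genome (1) gave no other call for sums.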

Additional observations from a re-analysis of the deposited data

Results flagged for a closer look

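The allelic ratio differed between pit digging and castle building, by the interaction test in edgeR, for the 11 genes below, which is what brought them here. With castle building as 1 sample, behaviour and that sample cannot be told apart, and the isolated shares lay on the pit digging side in all 11. Each value is the log2 difference in allelic ratio, pit digging minus castle building. It was positive for atp1b4 (4.90), LOC101468439 (4.16), mgrn1 (3.37) and LOC101466162 (2.34). It was negative for LOC101482653 (-4.51), tpt1 (-2.98), LOC101466690 (-2.75), ncapd2 (-2.70), ddx5 (-2.49), wsb1 (-1.93) and ywhaq (-1.85). In 7 of the 11 the less changed allele differed by under 2-fold.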

How the results depend on the processing

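With 2 samples against 1, counts of calls depended on the libraries kept. Leaving out each library in turn gave 7 to 43 allelic genes (11 with all) and 0 to 331 genes for sums (321 with all); sums gave 0 without either pit digging or either isolated library, and 331 and 321 without castle building replicate 1 and 2. Allelic counts were 10 and 43 without pit digging replicate 1 and 2, 7 without either isolated library, and 17 and 16 without castle building replicate 1 and 2. These fits have fewer degrees of freedom, except those that drop a castle building library. With pit digging and castle building alone, 5 allelic genes and 0 sums passed. Both castle building libraries as separate samples gave 273 and 2648 genes, and a replicate block on top of that gave 243 allelic genes and 2118 sums. Those counts treat near-identical libraries as replicates. Deviations of same-numbered libraries correlated at -0.0085 for sums and -0.0045 for allelic ratios between pit digging and castle building. The castle building libraries differ by less than sampling noise, so these values cannot show whether replicate numbers pair the samples. Between pit digging and isolation the correlations were -0.095 for sums and -0.032 for allelic ratios. TMM factors per allele gave 20 allelic genes, and DESeq2 826 sums. The count stayed within 1.5 times under the filters, under DESeq2 for allelic ratios (11), under other scalings (341 and 307 sums), and for sums from C. virginalis (254) or M. conophoros counts alone (276). With a mean total of at least 100, however, 478 sums passed of only 4752 genes tested, a larger share than the 4.69% of the main fit. A like count need not hold the same genes: of the 11 allelic genes under DESeq2, 8 were among the 11 of edgeR. LOC101468439, called for its sum, turned to -0.42 on M. conophoros counts alone, as follows from its unequal alleles. Of the 32 named sums and 11 allelic genes followed through these fits, no other changed direction; the other named calls were not followed.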
